A study of Mus musculus with 36 samples.

Results

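The comparison described here was between control B3 cells kept with 4-hydroxy-tamoxifen (4-OHT) for 24 h and control B3 cells kept with it for 2 h. B3 is a mouse pre-B lymphocyte line. The members were chosen by label alone: 6 of the 36 messenger RNA libraries of the series, 3 at each time, from culture batches 1, 3 and 4, with the 24 h and 2 h cultures of a batch forming a pair. The control cells carried a retroviral MSCV vector that encoded the estrogen receptor hormone-binding domain (ERt2) and GFP without Ikaros, and GFP-positive cells were sorted to make the line. Both groups received 0.5 uM 4-OHT, so the comparison holds the drug in common and differs in hours of exposure. According to the study's methods the drug was added at staggered times before a common harvest, which leaves the flasks of a batch with the same total time in culture. A change already complete at 2 h cannot appear in this comparison. The other line of the series carried HA-tagged Ikaros fused to ERt2, was treated in the same way, and is used below only where its own change from 2 h to 24 h is set beside that of the control cells.

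4-OHT binds ERt2 and lets a protein fused to it enter the nucleus, which is how Ikaros is switched on in the other line. Here the same ligand met a receptor domain with no transcription factor attached. Tamoxifen and its metabolites are also known to bind sterol-handling proteins of the endoplasmic reticulum, and cells answer a shortage of usable sterol by cleaving the SREBP transcription factors, which switch on the genes of cholesterol synthesis. Other programs that a cultured lymphocyte can move over a day are glucose uptake and glycolysis, the integrated stress response that runs through the transcription factor ATF4, and the immediate early genes that answer growth factor signals within minutes. Comparing times within the control line does not check the vector, which both groups carried. Ikzf1, which encodes Ikaros, lay at 14.71, 14.73 and 14.17 in batches 1, 3 and 4 at 2 h and at 14.58, 14.62 and 14.65 at 24 h. These groups overlapped, and the log2 fold change of 0.08 ± 0.14 (SE) was not called (adjusted p = 0.841).

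Levels are the deposited log2 values, which the authors corrected for gene length and GC content. The lowest value of the table was 1, and how this minimum arose was not examined. They are relative levels and not counts. The table carries no counts, so the depth reached by each library was not used here, and precision rests on 3 libraries at each time. The 6 library medians ran from 11.70 to 11.72, and pairs of libraries of the same time correlated across genes between 0.974 and 0.990. Of 19 pre-B markers 18 were in the table, with means over the 6 libraries from 7.99 to 18.58. Cd79a, the signalling chain of the B cell receptor, had a mean of 18.54 at 2 h and 18.61 at 24 h, Pax5, the factor that commits cells to the B lineage, 16.24 and 16.11, and the surrogate light chain gene Igll1 16.94 and 16.56. The mean of the median gene was 11.71. Markers of other blood cells were mostly missing from the table: 3 of 12 for T cells, 3 of 13 for myeloid cells, 4 of 10 for erythroid cells and 4 of 12 for mature B and plasma cells were listed, and limma called none of these 14 (2 higher and 2 lower at an unadjusted p under 0.05). In the same order, the highest marker mean over the 6 libraries was 11.70, 10.17, 12.63 and 13.15. Outside these lists, Cd68, a marker of macrophages, and Cd244, a receptor of natural killer cells, were called higher at 24 h, by 1.23 ± 0.23 and 1.54 ± 0.31 on the log2 scale (adjusted p = 0.0161 and 0.0207); both were picked after their values were seen, and their part in the results below was not tested. In RNA from whole cultures, fewer cells of a type and less RNA per cell cannot be told apart.

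Few genes were called between 2 h and 24 h in the control cells, though 1858 (14.6%) had an unadjusted p under 0.05 in limma. Of 12762 genes, 130 were called at an adjusted p under 0.05 (limma with the culture batch as a block, 1.02% of all genes). Of these, 82 were higher at 24 h (0.643%) and 48 lower (0.376%), and 41 moved by 1 log2 unit or more in either direction (0.321%). With genes of low level filtered out, 97 genes were called and 7 of them moved by 1 log2 unit or more. The genes that rose included glucose transport and glycolysis genes (Slc2a1, Slc16a3, Hk2, Pfkp and Pfkl), hypoxia-responsive genes (P4ha1, Ndrg1 and Egln1), ATF4 and its targets (Atf4, Chac1, Sesn2 and Ppp1r15a), immediate early genes (Fosb, Egr1, Egr2 and Klf2) and sterol synthesis genes (Lss, Fdft1 and Idi1). The genes that fell included the sterol export genes Abcg1 and Pltp, the progenitor regulators Myb and Sox4, the receptors Cxcr4 and Il7r, and the clock gene Arntl. Log2 fold changes of called genes ran from -1.90 to 2.80, and the median of their absolute values was 0.69.

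The call rests on all 3 batches. All 130 genes moved the same way in each batch, against 37.6% of all genes, and in 124 of them the 3 libraries of the 24 h group lay wholly above or below those of the 2 h group, against 15.3% of all genes; both properties follow in large part from the call itself. Without batch 1, 3 or 4 the number called was 6, 0 or 12. Without the batch as a block it was 28. With the 15 control libraries alone it was 74, of which 54 were among the 130, and with the 6 libraries alone limma called 0, with the block (1339 at an unadjusted p under 0.05) or without it (981). In 70 of the 130 the mean level was below that of the median gene. The within-batch differences spread more widely in batch 4, with an SD over genes of 0.742 against 0.470 in batch 1 and 0.455 in batch 3, and across genes they correlated at 0.256 between batches 1 and 3, 0.241 between 1 and 4 and 0.210 between 3 and 4, as a description only.

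Glucose uptake and glycolysis rose in part. Slc2a1, which encodes the glucose transporter GLUT1, lay at 12.87, 13.16 and 13.13 in batches 1, 3 and 4 at 2 h and at 13.99, 14.21 and 14.39 at 24 h. Every 24 h culture stood above every 2 h culture, and the rise was 2.20-fold (log2 fold change 1.14 ± 0.17, adjusted p = 0.0019). Slc16a3 encodes the lactate exporter MCT4. Its level went from 10.44, 11.67 and 11.63 to 12.63, 13.15 and 13.16, a 3.32-fold rise (1.73 ± 0.36, adjusted p = 0.0236). The groups did not overlap, and batch 1 started lowest and rose by the most.

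The kinases at the entry of glycolysis rose by less. Hk2, the inducible hexokinase, lay at 12.89, 12.99 and 12.70 at 2 h and at 13.38, 13.53 and 13.42 at 24 h, 1.5-fold higher (0.58 ± 0.13, adjusted p = 0.042). Pfkp and Pfkl are isoforms of phosphofructokinase, which catalyses the committed step, and rose by 0.64 ± 0.13 and 0.67 ± 0.14 on the log2 scale (adjusted p = 0.0204 and 0.0297). Some later enzymes, picked after their values were seen, did not rise. Gapdh had a log2 fold change of -0.02, Ldha, which makes lactate, of 0.01, and Pgk1 of -0.26, and none was called. Of the 20 glycolysis genes measured 5 rose and 15 were not called. Over the list 17 values were positive and 3 negative, and the median log2 fold change was 0.26, against 0.01 over all genes. Entry and later enzymes were not compared as groups. At an unadjusted p under 0.05, 10 were higher and 0 lower, against 8.06% of all genes higher and 6.5% lower.

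Hypoxia-responsive genes lay on the same side. P4ha1, a subunit of the prolyl hydroxylase that matures collagen, went from 12.10, 12.72 and 13.08 to 13.30, 13.63 and 13.86, 1.95-fold higher (0.97 ± 0.18, adjusted p = 0.0129). The batches kept their order at both times, and the lowest 24 h culture was above the highest 2 h culture. Ndrg1, a stress-responsive growth regulator, rose 1.61-fold (0.69 ± 0.15, adjusted p = 0.0373), and Egln1, the oxygen-sensing hydroxylase that marks HIF proteins for destruction, 1.45-fold (0.54 ± 0.10, adjusted p = 0.0165). Of 17 listed genes 3 rose and 14 were not called. All 17 had a positive log2 fold change, from 0.10 for Ankrd37 to 0.97 for P4ha1, with a median of 0.36, and 10 were higher at an unadjusted p under 0.05. Bnip3, a mitophagy receptor, had 0.76 ± 0.29 and Ero1l, an oxidase of the endoplasmic reticulum, 0.73 ± 0.18, with adjusted p of 0.23 and 0.0623; both were picked for mention after their values were seen.

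**Figure D1:**
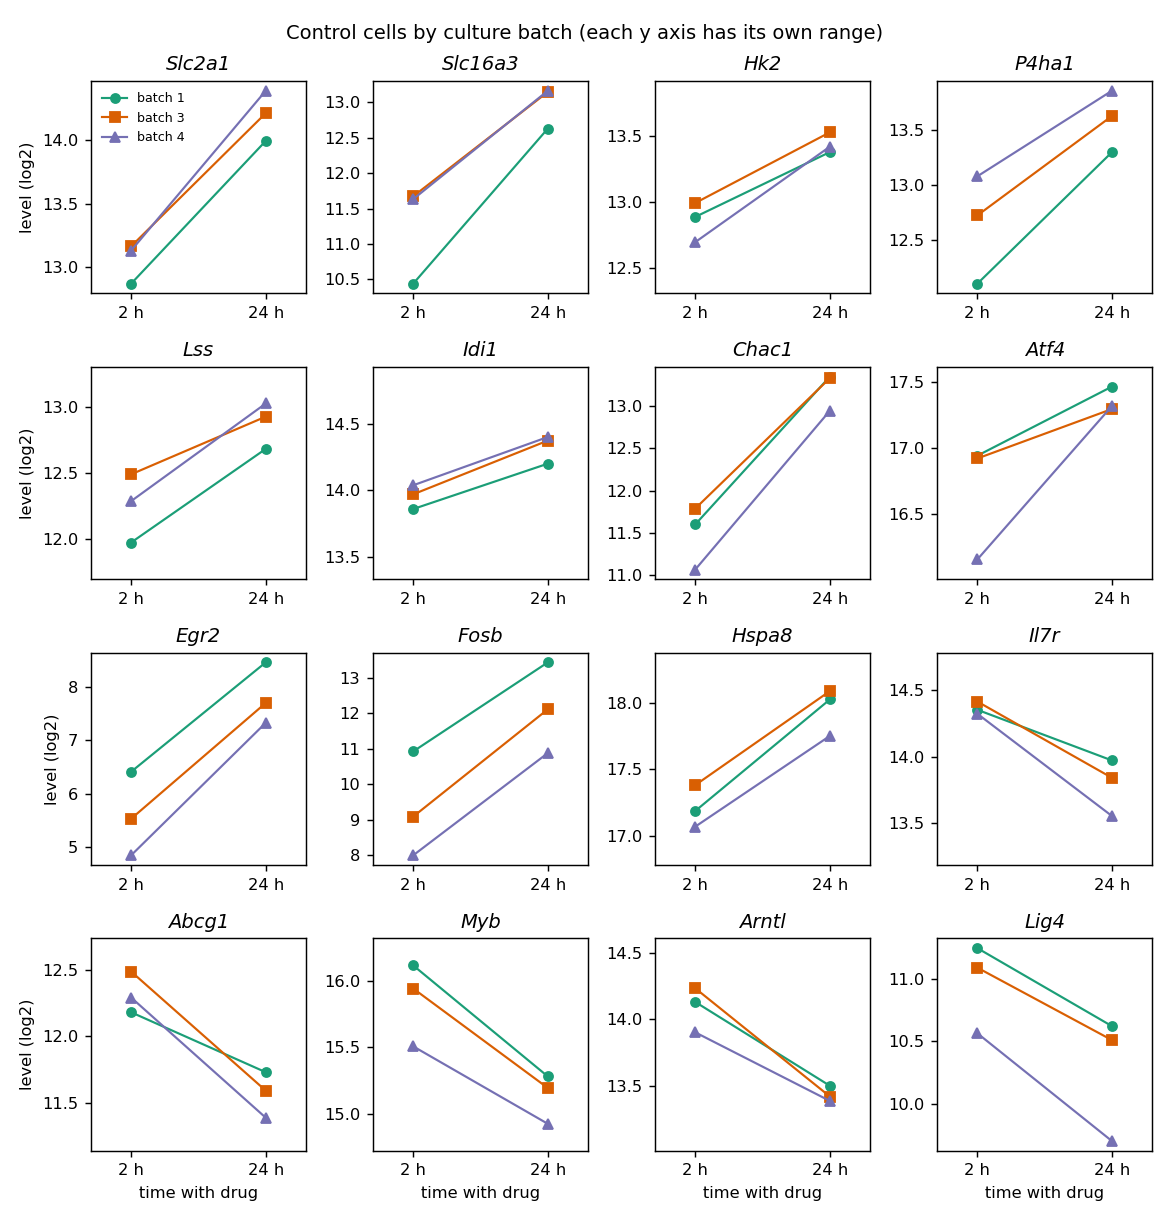
Levels (log2) of 16 called genes in control cells after 2 h and 24 h with 4-OHT; each line joins the cultures of a batch (circles batch 1, squares batch 3, triangles batch 4), and each panel has its own range. In all 16 panels the 3 lines run the same way, and the 2 h and 24 h cultures overlap in 2 panels, Fosb and Lig4.

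Promoters of called glycolysis and hypoxia genes are shown because HIF proteins are known to bind the letters ACGTG. Whether HIF had a part in these changes was not tested. The letters were looked for on both strands in the 250 bases before the transcription start (RefSeq, GRCm38.p6). Capitals mark them, and a match to the other strand reads CACGT. Each window has 30 bases, 5′ to 3′ on the gene's strand.
Slc2a1, chr4:119108697-119108726, plus strand: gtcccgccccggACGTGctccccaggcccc
Slc16a3, chr11:120949037-120949066, plus strand: gtgACGTGcgcgggggACGTGccgcgcgac
Hk2, chr6:82774663-82774692, minus strand: agccacggaacaCACGTcccaactctggcg
Hk2, chr6:82774489-82774518, minus strand: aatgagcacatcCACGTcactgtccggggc
P4ha1, chr10:59323266-59323295, plus strand: ggtgtgacagagcgCACGTagcgagggctg
Egln1, chr8:124949305-124949334, minus strand: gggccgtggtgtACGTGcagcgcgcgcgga
The letters stood in 9 of 21 listed glycolysis promoters (42.9%) and 10 of 17 promoters of the hypoxia list (58.8%). They stood in 16.6% of 27025 promoters and in 22.3% of the 8586 promoters of genes in the table. The hypoxia list was written from genes known to answer HIF, so this share describes the list. Pfkp and Pfkl had no match in this window, and Ndrg1 had no promoter among the sequences used. A match says only that these letters are present, and the letters lie inside the longer E-box CACGTG, which 6.05% of promoters held.

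Of the sterol genes, 3 of synthesis rose and 2 of export fell. Lss, the cyclase that makes lanosterol, went from 11.97, 12.49 and 12.29 to 12.68, 12.92 and 13.02, a 1.54-fold rise (0.63 ± 0.13, adjusted p = 0.028). Fdft1, which makes squalene, went from 12.30, 12.54 and 12.42 to 12.79, 12.91 and 12.97 (1.39-fold, 0.47 ± 0.10, adjusted p = 0.0298). Idi1, the isomerase of isoprenoid building blocks, went from 13.86, 13.97 and 14.04 to 14.20, 14.37 and 14.40 (1.29-fold, 0.37 ± 0.09, adjusted p = 0.042). In all 3 genes the groups stood apart, and the batches agree closely for Idi1, with within-batch differences of 0.34, 0.40 and 0.36.

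Of 28 genes of sterol synthesis and SREBP2 control, these 3 rose and 25 were not called. The median log2 fold change was 0.30, 27 of 28 values were positive, and 16 were higher at an unadjusted p under 0.05. Medians within batches 1, 3 and 4 were 0.23, 0.23 and 0.38. Npc1, which moves cholesterol out of lysosomes, had -0.10. Among 16 genes of fatty acid synthesis and SREBP1 control, limma called 0, with 1 higher and 0 lower at an unadjusted p under 0.05; the median was 0.11, and Fads2, a fatty acid desaturase, had the smallest p (0.58 ± 0.15, adjusted p = 0.0747). The sterol regulatory element TCACNCCAC, searched in the same window on both strands, was in 1 of 20 listed promoters and in 1.04% of all promoters, and in 0 of the 2 called members that had a promoter in the table used.

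Of the sterol export genes, which the oxysterol receptor LXR is known to switch on, 2 fell. Abcg1, a cholesterol exporter, went from 12.18, 12.49 and 12.29 to 11.73, 11.59 and 11.39, 0.594 times its 2 h level (-0.75 ± 0.12, adjusted p = 0.00383). Pltp, a phospholipid transfer protein, went from 6.97, 7.32 and 7.73 to 5.99, 6.49 and 5.27 (-1.42 ± 0.30, adjusted p = 0.028), at a low level and with the widest fall in batch 4. Neither gene's groups overlapped. Of 10 LXR targets and export genes 2 fell and 8 were not called, with a median of -0.33, 4 values positive and 6 negative, and 1 higher and 3 lower at an unadjusted p under 0.05. Mylip, a ubiquitin ligase gene, had -0.57 and Abca1, another exporter, 0.02, the latter near the lower end of the table's values in all 6 libraries.

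ATF4 and part of its target genes rose. Chac1, which breaks down glutathione and is a late ATF4 target, went from 11.60, 11.79 and 11.06 to 13.35, 13.33 and 12.95, a 3.31-fold rise (1.73 ± 0.24, adjusted p = 0.0019). The 24 h cultures of all batches lay more than a full log2 unit above the highest 2 h culture. Atf4 itself went from 16.94, 16.92 and 16.16 to 17.46, 17.30 and 17.32 (1.61-fold, 0.68 ± 0.12, adjusted p = 0.00821), and batch 4, the lowest at 2 h, rose by the most. Sesn2, which restrains mTORC1 signalling, rose 1.88-fold (0.91 ± 0.16, adjusted p = 0.00966) and Ppp1r15a, the phosphatase subunit that switches the response off, 2.14-fold (1.10 ± 0.25, adjusted p = 0.0397).

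Of 26 listed genes 4 rose and 22 were not called, with a median of 0.22, 23 values positive and 11 higher at an unadjusted p under 0.05. The amino acid genes of the list had smaller values, 0.19 for the asparagine synthetase gene Asns, 0.12 for Psat1 and -0.05 for Phgdh, both of serine synthesis, and the stress factor gene Ddit3 had 0.11. The 20 chaperone and unfolded protein response genes had a median of 0.04, and limma called 0, with 1 higher and 0 lower at an unadjusted p under 0.05. Hspa8, the constitutive cytosolic HSP70 and not a member of that list, was 1.68-fold higher, at 17.18, 17.38 and 17.07 at 2 h and 18.03, 18.09 and 17.75 at 24 h (0.74 ± 0.11, adjusted p = 0.0019). Promoters of 2 called genes held motifs that stress factors are known to bind, with capitals marking TTGCATCA (amino acid response element) in Chac1 and TGACGTCA (cAMP response element) in Ppp1r15a.
Chac1, chr2:119351038-119351067, plus strand: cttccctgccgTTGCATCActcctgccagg
Ppp1r15a, chr7:45526269-45526298, minus strand: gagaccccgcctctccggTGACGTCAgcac
The first motif was in 6 of 26 listed promoters (23.1%) and in 0.818% of all promoters, against 0.582% of promoters of genes in the table. The list was written from genes known to belong to the integrated stress response, so this share describes the list. Of its 4 called members 1, Chac1, held the first motif. The second was in 1 of 26 (3.85%), near its 2.95% among promoters of genes in the table, and in 1.62% of all.

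**Figure D2:**
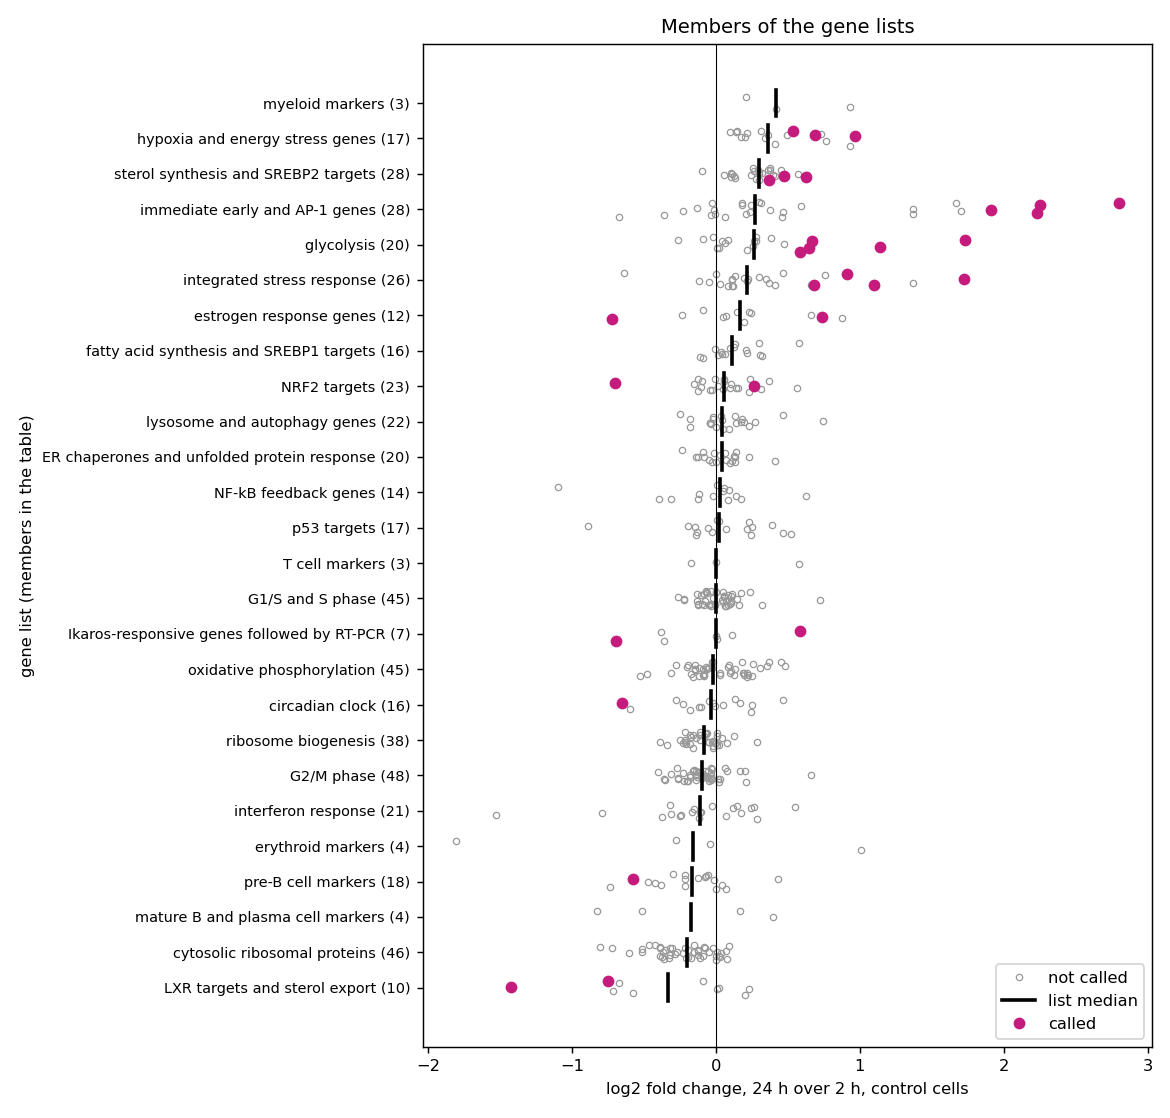
Log2 fold change, 24 h over 2 h, in control cells for the members of 26 gene lists, sorted by list median; filled points passed the test, open points did not, and bars mark medians. Called genes lie to the right in glycolysis (5), the integrated stress response (4), immediate early genes (4), sterol synthesis (3) and hypoxia (3), and to the left for LXR targets (2).

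The immediate early genes held the largest rises of any list. Fosb, a subunit of the AP-1 transcription factor, lay at 10.92, 9.09 and 8.00 in batches 1, 3 and 4 at 2 h and at 13.43, 12.11 and 10.88 at 24 h. The groups overlapped, because batch 1 at 2 h was as high as batch 4 at 24 h, but the differences within batches were alike at 2.51, 3.02 and 2.88 (2.80 ± 0.57, adjusted p = 0.022). Egr1 and Egr2 encode zinc finger factors induced through MAP kinase signalling. Egr1 went from 12.04, 11.70 and 10.53 to 14.22, 13.24 and 12.53 (3.76-fold, 1.91 ± 0.36, adjusted p = 0.0161). Egr2, at a low level, went from 6.41, 5.53 and 4.85 to 8.45, 7.70 and 7.32 (4.69-fold, 2.23 ± 0.37, adjusted p = 0.00713). Klf2, a factor of lymphocyte quiescence and trafficking, went from 8.78, 7.92 and 7.59 to 10.80, 10.17 and 10.06 (4.75-fold, 2.25 ± 0.43, adjusted p = 0.0163). In all 4 genes batch 1 was highest and batch 4 lowest at both times.

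Of 28 immediate early genes 4 rose and 24 were not called, with a median of 0.27; 11 were higher and 2 lower at an unadjusted p under 0.05. Jun and Fos had log2 fold changes of 1.71 ± 0.44 and 1.67 ± 0.63 with adjusted p of 0.0703 and 0.223, and Fos in batch 4 was at 5.92 at 2 h and 6.07 at 24 h. Junb, of the same family, had -0.01, and Egr3 had -0.68. Dusp6, which answers sustained ERK signalling, had -0.13.

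Other well-expressed genes rose outside these groups. Rcor2, a corepressor that partners the histone demethylase LSD1, had the smallest adjusted p among the genes named here, at 12.12, 12.49 and 12.25 at 2 h and 13.00, 13.15 and 13.08 at 24 h (1.73-fold, 0.79 ± 0.09, adjusted p = 0.000626). Traf4, a signalling adaptor, rose 1.74-fold (0.80 ± 0.13, adjusted p = 0.00476). Rara, the retinoic acid receptor alpha gene and a known estrogen target, rose 1.67-fold from 10.39, 10.69 and 10.64 to 11.06, 11.27 and 11.60 (0.74 ± 0.17, adjusted p = 0.042). Among 12 estrogen response genes Rara rose, Myb fell and 10 were not called, with a median of 0.17.

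Myb, a regulator of lymphoid progenitors, went from 16.12, 15.94 and 15.51 to 15.28, 15.19 and 14.92, 0.605 times its 2 h level (-0.72 ± 0.13, adjusted p = 0.00966). Cxcr4, the receptor that holds B cell progenitors in bone marrow, went from 13.75, 13.42 and 13.07 to 12.92, 12.54 and 12.47 (-0.77 ± 0.15, adjusted p = 0.0207). Il7r, a chain of the interleukin-7 receptor, went from 14.35, 14.41 and 14.32 to 13.97, 13.84 and 13.55 (-0.58 ± 0.12, adjusted p = 0.0248). Sox4, needed for early B cell development, fell by 0.61 on the log2 scale (SE 0.11, adjusted p = 0.00966), by 0.30 in batch 1, 0.60 in batch 3 and 0.93 in batch 4. Il7r was the only one of 18 pre-B markers called. The median of the list was -0.17, with 15 negative values and 5 lower at an unadjusted p under 0.05, among them the adaptor gene Blnk (-0.48 ± 0.12, adjusted p = 0.0623).

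Arntl, which encodes the clock factor BMAL1, went from 14.13, 14.23 and 13.90 to 13.50, 13.42 and 13.39 (-0.65 ± 0.13, adjusted p = 0.0163). It was the only one of 16 clock genes called, and Per1, Per2 and Dbp had 0.17, -0.10 and 0.05. Nfe2l2 encodes NRF2, the regulator of antioxidant genes, and went from 13.87, 14.22 and 14.26 to 13.56, 13.45 and 13.25 (-0.70 ± 0.14, adjusted p = 0.0204). Of 23 genes in the NRF2 list, which held Nfe2l2 itself, only Pgd, an enzyme of the pentose phosphate pathway, rose (0.26 ± 0.06, adjusted p = 0.042), Nfe2l2 fell, and the median was 0.05. Neat1, a nuclear long noncoding RNA, fell by 0.75 on the log2 scale (SE 0.18, adjusted p = 0.0456), but by 0.07 in batch 1 against 1.00 and 1.19 in batches 3 and 4. Optn, an autophagy receptor, fell to 0.537 times its 2 h level (-0.90 ± 0.18, adjusted p = 0.0216), Mis18a, which loads centromeric histone, to 0.621 times (-0.69 ± 0.16, adjusted p = 0.042) and Mettl7a1, a methyltransferase-like gene, to 0.636 times (-0.65 ± 0.15, adjusted p = 0.0397).

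Many programs gave no called gene. Limma called 0 of 45 G1/S and S phase genes (3 higher and 0 lower at an unadjusted p under 0.05, median 0.00), 0 of 48 G2/M genes (2 higher and 4 lower, median -0.10, 39 values negative) and 0 of 38 ribosome biogenesis genes (1 higher and 1 lower, median -0.08, 30 values negative). It also called 0 of 17 p53 targets (1 higher and 1 lower, median 0.02), 0 of 22 lysosome and autophagy genes (2 higher and 1 lower, median 0.04), 0 of 21 interferon response genes (0 higher and 1 lower, median -0.11) and 0 of 14 NF-kB feedback genes (1 higher and 2 lower, median 0.03). Of 45 oxidative phosphorylation genes 0 were called (5 higher and 0 lower, median -0.02). The 46 cytosolic ribosomal protein genes had a median of -0.20 and 39 negative values, with 0 called and 13 lower at an unadjusted p under 0.05; their medians within batches 1, 3 and 4 were -0.09, -0.04 and -0.51, so batch 4 stood apart. In all, 28 of the 539 distinct genes on the 26 lists were called (5.19%, against 1.02% of all genes), 21 higher and 7 lower; the lists were written with earlier results of these data known.

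Of the 7 genes that the study had followed by RT-PCR as responsive to Ikaros, 2 were called in control cells and 5 were not, with a median of -0.00. Hk2 rose as given above, and Lig4, a ligase of V(D)J recombination repair, fell from 11.25, 11.09 and 10.56 to 10.62, 10.51 and 9.70 (-0.69 ± 0.16, adjusted p = 0.0426). Its groups overlapped, since batch 4 at 2 h lay below batch 1 at 24 h, but the 3 batches differed by -0.63, -0.58 and -0.87. The other 5 were not called: Myc had -0.36 (adjusted p = 0.319), Igll1 -0.38 (adjusted p = 0.418), Slc7a5 0.11, Ldha 0.01 and Foxo1 -0.00. In the Ikaros line Hk2 changed by -2.23 and Lig4 by 2.40, each opposite in sign to the control cells.

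Means at the times between are set beside those at 2 h and 24 h and carry no test. The called genes were chosen by their 2 h and 24 h levels, and every difference below is taken from the same 2 h cultures. A 2 h mean that was off by chance would move all later differences of a gene the same way, so these values do not date a change. Slc2a1 averaged 14.06 ± 0.242 (SD, n = 3) at 6 h, 13.77 at 12 h and 13.60 at 18 h, between 13.05 at 2 h and 14.20 at 24 h, and Hk2 stood at 13.36, 13.37 and 13.33 at the 3 middle times. Idi1 was at 14.21, 14.19 and 14.20, and Arntl at 13.57, 13.44 and 13.46. For Slc2a1, Hk2, Idi1 and Arntl the 6 h mean lay closer to the 24 h mean than to the 2 h mean. The other called sterol synthesis genes were less steady, Fdft1 at 12.86, 12.68 and 12.52 and Lss at 12.75, 12.69 and 12.55. Over the 28 sterol synthesis genes the median difference from 2 h was 0.23, 0.15, 0.04 and 0.30 at 6, 12, 18 and 24 h. Chac1 was at 11.67 at 6 h, near its 2 h mean of 11.48, and at 12.65 and 12.85 at 12 h and 18 h. Hspa8 was at 17.36, 17.89 and 17.88. Fosb was lower at 6 h (8.70) than at 2 h (9.34) and stood at 9.74 and 11.23 at 12 h and 18 h, with SDs above 1 at each time. Klf2 was also lowest at 6 h, at 7.13. Across the 82 genes called higher the median difference from 2 h was 0.27, 0.49, 0.42 and 0.67 at 6, 12, 18 and 24 h, and across the 48 called lower it was -0.16, -0.44, -0.39 and -0.71.

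**Figure D3:**
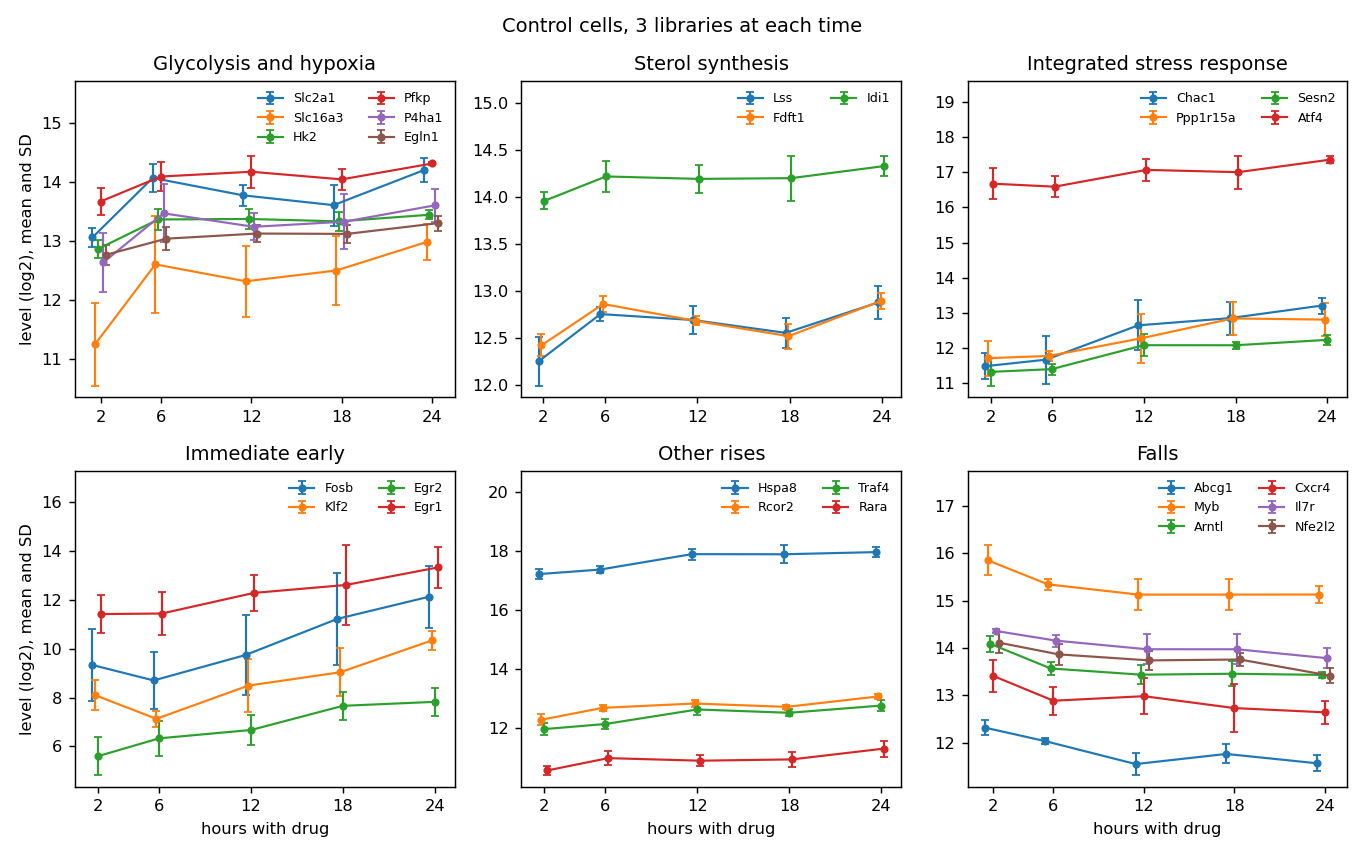
Mean level (log2) and SD of 3 control libraries at 2, 6, 12, 18 and 24 h with 4-OHT for 27 called genes, points shifted slightly sideways to separate them. Slc2a1 is at 14.06 by 6 h, Chac1 moves from 11.67 at 6 h to 12.65 at 12 h, and Fosb is lowest at 6 h, at 8.70.

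Against the Ikaros line the control change was small, and at most called genes it was different. In Ikaros cells 8135 genes were called between the same times (63.7%), the median absolute log2 fold change over all genes was 0.636 against 0.162 in control cells, and the change differed between the lines for 6551 genes (51.3%). Of the 130 genes called in control cells the difference was called for 107, and in 77 of these the lines had opposite signs. The control libraries that gave the 130 calls also enter the test of the difference, so the choice of genes can by itself raise these counts. Of the 97 called in both lines, 32 changed in the same direction and 65 in opposite directions. Directions were not counted in this way over all genes. As a description only, the changes of the lines correlated at -0.015 across all genes and at -0.21 across the 130.

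All 8 glycolysis and hypoxia genes called in control cells had the opposite sign in the Ikaros line. Slc16a3 changed by -5.61 in Ikaros cells against 1.73 in control cells, Slc2a1 by -2.46 against 1.14 and P4ha1 by -1.31 against 0.97, with adjusted p for the difference of 3.6e-10, 1.5e-10 and 2.5e-07. The list medians in Ikaros cells were -2.06 for glycolysis and -1.31 for hypoxia. Cxcr4, Myb and Il7r, which fell in control cells, changed by 2.09, 2.04 and 2.11 in Ikaros cells. Among the sterol synthesis genes Idi1 changed by 0.35 in Ikaros cells against 0.37 in control cells, a difference of -0.02 ± 0.12 that was not called (adjusted p = 0.9). Fdft1 rose by more in Ikaros cells (1.28 against 0.47). Lss had 0.07 in Ikaros cells, itself not called in limma (adjusted p = 0.68), against 0.63. For Fdft1 and Lss the difference between the lines was called. The difference between the lines was not called for Hspa8 (0.96 against 0.74, adjusted p = 0.25), Egr1 (0.79 against 1.91, adjusted p = 0.076), Egr2 (1.52 against 2.23, adjusted p = 0.28), Klf2 (3.49 against 2.25, adjusted p = 0.096) and Ppp1r15a (0.56 against 1.10, adjusted p = 0.21), which does not show that the lines changed alike.

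**Figure D4:**
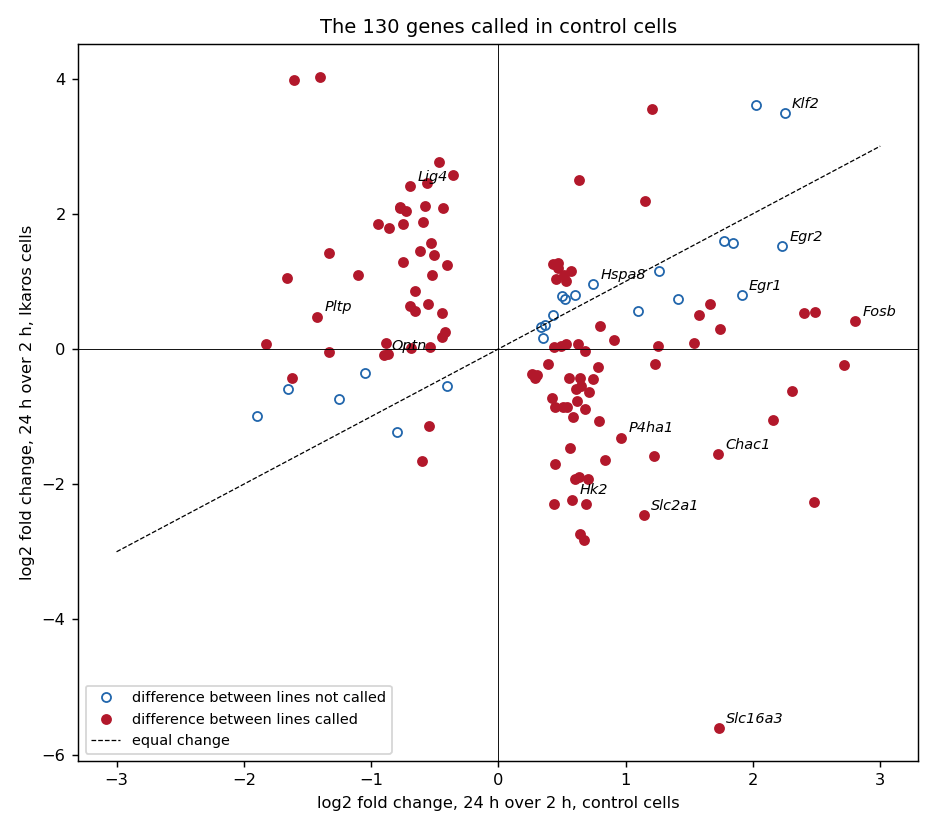
Log2 fold change from 2 h to 24 h in control cells (x axis) and Ikaros cells (y axis) for the 130 genes called in control cells; filled points are the 107 whose change differed between the lines, and the dashed line marks equal change. Slc16a3 lies at 1.73 and -5.61, while Hspa8 lies at 0.74 and 0.96.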

How the data were processed

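Messenger RNA of B3 cells was sequenced as stranded paired-end libraries. Per the study's methods the authors trimmed reads, aligned them to mm10 with TopHat2, counted genes with HTSeq, normalised the counts with cqn, which corrects for GC content and length, and removed the effect of library preparation by ComBat in its non-parametric form. What was deposited is a table of log2 values with a minimum of 1. Versions and the strand setting of the counting are not given in the sources used here. The study's methods balanced the samples over several library preparation runs, and the labels do not name the run of each library. Spread between runs was adjusted before deposit, so the standard errors may be too small. The table held 12762 genes, 12501 with a symbol, and 0 columns were left unmapped. No 2 of the 6 libraries shared an identical value. Because the strand setting is not known, overlapping genes and near-identical copies are uncertain.

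Groups came from the sample labels. The model covered the 30 libraries at 2 to 24 h of both lines and was run in limma 3.58.1 under R 4.3.3 (10 group means, which share an estimate of spread, and culture batch as a block). The 0 h cultures were left out, being partly of another batch. The contrast was control at 24 h minus control at 2 h, two-sided, Benjamini-Hochberg adjusted over all genes, called at an adjusted p under 0.05. The difference between the lines was a contrast of the same fit. The labels give same-numbered cultures the same batch, and the libraries were paired by that number. Across genes the departures of such libraries from the mean of their group correlated at 0.178, 0.140 and 0.251. Departures of libraries with different numbers were not compared, so these values do not test the pairing. Libraries of different times correlated at 0.965 to 0.987 within a batch and at 0.967 to 0.987 between batches. P-values rest on the spread left after group means and batch were fitted, shared over the 30 libraries of both lines (18 residual degrees of freedom). The batches are repeat cultures of the same lines, so the p-values do not cover other lines. Summaries used pandas 2.3.3 and numpy 2.4.6, and the fit was tested on simulated data.

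The members and gene lists were chosen with earlier results of these data known. Genes named are Ikzf1, the 7 genes followed by RT-PCR, the 10 largest rises and 10 largest falls among called genes with a symbol, a mean at or above that of the median gene and the same sign in all batches, and up to 4 called genes of each list by smallest p (up to 2 genes, as values, for a list with none). Other genes are given as values of a list and were picked after their values were seen. Promoters are RefSeq sequences on GRCm38.p6, and 91 of the 128 called genes with a symbol had one. The alternatives were no block, a random block, fewer or all libraries, a filter at the 25th percentile of gene means (9.52), quantile normalisation, a trended robust spread, removal of GC and length trends, and leaving out each batch. Weights for each library and a separate block in each line were added after the data were seen. Some list members are not reported here.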

Additional observations from a re-analysis of the deposited data

Results flagged for a closer look

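For 31 genes named as called in control cells, the change from 2 h to 24 h also differed between the lines. In limma's test of the difference itself the adjusted p was between 1.4e-11 and 0.0385, and 51.3% of all genes were called. The control libraries that chose the 31 genes also enter this test. The choice by itself can therefore raise their share of calls, and the 51.3% is not a like comparison. The values are the Ikaros change minus the control change on the log2 scale. Genes that rose in control cells and had the opposite sign in Ikaros cells were Slc16a3 (-7.34), Slc2a1 (-3.60), Pfkl (-3.49), Pfkp (-3.38), Chac1 (-3.29), Ndrg1 (-2.98), Hk2 (-2.81), P4ha1 (-2.28), Rcor2 (-1.86), Egln1 (-1.40), Rara (-1.19), Atf4 (-0.71) and Pgd (-0.63). Genes that fell in control cells and had the opposite sign in Ikaros cells were Lig4 (3.10), Cxcr4 (2.86), Myb (2.76), Il7r (2.69), Neat1 (2.60), Sox4 (2.06), Abcg1 (2.04), Pltp (1.90), Mettl7a1 (1.52), Nfe2l2 (1.33), Arntl (1.21) and Mis18a (0.69). Among these, the Ikaros change itself was near 0 and not called for Mis18a (0.01, adjusted p = 0.97) and Atf4 (-0.03, adjusted p = 0.84), and it was not called for Pltp (0.48, adjusted p = 0.18). In 6 genes the signs were alike and the sizes differed, namely Fosb (-2.39), Sesn2 (-0.78), Lss (-0.56) and Traf4 (-0.46), whose rise was larger in control cells, Optn (0.81), whose fall was larger in control cells, and Fdft1 (0.81), whose rise was larger in Ikaros cells. Limma did not call the Ikaros change itself for Fosb (0.41, adjusted p = 0.54), Sesn2 (0.13, adjusted p = 0.49), Lss (0.07, adjusted p = 0.68) and Optn (-0.09, adjusted p = 0.68).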

How the results depend on the processing

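The 130 calls (82 higher, 48 lower) depended on the block and on the number of libraries. With no replicate block 28 genes were called (19 higher, 9 lower), and with all 36 libraries and no replicate block 58 (32 and 26). With the 15 control libraries and the block 74 were called (52 and 22). With the 6 libraries alone limma called 0 with or without the block (0 higher, 0 lower; 1339 and 981 at an unadjusted p under 0.05), where few residual degrees of freedom remain. Leaving out a batch gave 0 to 12 calls, 0 to 9 higher and 0 to 3 lower, with 0 without batch 3 (1295 at an unadjusted p under 0.05). Library weights, added after the data were seen, gave 430 (249 and 181), and the cause was not tested. The weights ran from 0.209 (Ikaros, 12 h, batch 4) to 6.755 (Ikaros, 18 h, batch 3). The 24 h control culture of batch 4 had a weight of 0.347. The difference between the lines was called for 4343 to 6173 genes with a batch left out, against 6551. A random block, the filter, quantile normalisation, a trended spread, GC and length removal and a separate block in each line gave 97 to 157 calls. With GC and length trends removed 54.1% of calls were higher, against 63.1%. Of the 37 called genes named, 9 stayed called with no replicate block and 0 to 4 with a batch left out. Signs turned only at uncalled genes. With a batch left out, log2 fold changes ran from -0.12 to 0.18 for Ikzf1, -0.065 to 0.21 for Slc7a5, -0.023 to 0.019 for Foxo1, -0.11 to 0.084 for Ldha and -0.089 to 1.52 for Lyz2, and with library weights they were -0.019 for Ikzf1 and 0.032 for Foxo1. Without counts, genes at low levels could not be given a counting error. Calls of 1 log2 unit or more numbered 41, and 7 with the filter on low values.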

Other observations

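Some called genes belong to no list or rule above and were picked after their values were seen. Among those that rose, Gys1, the glycogen synthase of most tissues, went from 12.88, 13.24 and 13.01 at 2 h to 13.53, 13.55 and 13.59 at 24 h (0.51 ± 0.10, adjusted p = 0.0163 in limma), and Nampt, which recycles NAD, from 12.93, 13.25 and 13.10 to 13.70, 13.87 and 13.61 (0.63 ± 0.15, adjusted p = 0.0485). In Ikaros cells they changed by -0.86 and -1.90. Dgka, which turns diacylglycerol into phosphatidic acid, rose by 0.63 ± 0.09 (adjusted p = 0.00161) in control cells and by 2.50 in Ikaros cells. Gem, a small GTPase gene, was at 4.50, 3.84 and 3.68 at 2 h and 6.19, 6.49 and 6.27 at 24 h (2.31 ± 0.34, adjusted p = 0.00236).

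Among those that fell, Spib, an ETS factor of B cells, went from 7.78, 8.35 and 8.00 to 6.90, 6.94 and 6.09 (-1.40 ± 0.25, adjusted p = 0.00966), Dok3, an adaptor that dampens B cell receptor signalling, from 15.17, 15.19 and 15.37 to 14.75, 14.63 and 14.96 (-0.47 ± 0.09, adjusted p = 0.015), and the repressor gene Zeb2 by -0.44 ± 0.10 (adjusted p = 0.042). In Ikaros cells the same genes changed by 4.03, 2.77 and 2.08. Cirbp, a cold-inducible RNA-binding protein gene, went from 13.10, 12.89 and 13.04 to 12.47, 12.58 and 12.64 (-0.45 ± 0.09, adjusted p = 0.0216). Gm14302 (-1.66) is annotated as an antisense gene, and its value is uncertain because the strand setting of the counting is not known.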
